A study of Mus musculus with 24 samples.

Results

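Messenger RNAs of 9 genes that mark neurons were followed animal by animal in choroid plexus from 24 mice, each hybridised to its own Illumina bead array. The genes were Gad1, Slc32a1, Slc17a7, Camk2b, Uchl1, Snap25, Syt1, Gap43 and Nefl, taken by name, with every probe that the array carries for them. They have 10 of its 25697 probes (9 of 16593 named genes), because Gad1 has 2 probes, ILMN_1234988 and ILMN_2621743. The mice were J20 (n = 4) and WT (n = 3) at 3 months, J20 (n = 4) and WT (n = 4) at 5-6 months, and J20 (n = 3) and WT (n = 6) at 11-12 months. J20 mice carry human amyloid precursor protein with the Swedish and Indiana mutations under the promoter of the platelet-derived growth factor B chain, which is active mainly in neurons. The labels give only the name of the line, and no treatment is given for any group. The arrays lay on 3 BeadChips, the slides that hold 8 arrays each.

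The choroid plexus is a folded epithelium around a vascular stroma that hangs from the wall of each brain ventricle and secretes cerebrospinal fluid. It holds no neuronal cell bodies of its own, but nerve fibres reach it, and its root joins brain tissue where it is cut free. The 9 genes serve different parts of a neuron. Gad1 encodes the enzyme that makes the inhibitory transmitter GABA from glutamate, and Slc32a1 the transporter that loads GABA into synaptic vesicles. Slc17a7 encodes the vesicular glutamate transporter VGLUT1, which is typical of excitatory neurons of cortex and hippocampus. Camk2b encodes a subunit of a calcium-dependent kinase of synapses, and Uchl1 a ubiquitin hydrolase that is abundant in neurons. Snap25 encodes a protein of the vesicle fusion machinery and Syt1 its calcium sensor, Gap43 a protein of growing axons, and Nefl the light chain of neurofilaments.

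Promoter windows are shown for Slc32a1 and Gad1, whose levels were highest in the same animal, and for Slc17a7, whose level was not high there. Each runs from 250 bases before to 50 bases after the RefSeq start of the gene in the mouse build GRCm38.p6, 5′ to 3′ on the gene's strand. Slc32a1 lies at chr2:158610508-158610807, Gad1 at chr2:70561879-70562178 and Slc17a7 at chr7:45163671-45163970, all on the plus strand. Capitals mark the GC box GGGCGG on either strand.
Slc32a1: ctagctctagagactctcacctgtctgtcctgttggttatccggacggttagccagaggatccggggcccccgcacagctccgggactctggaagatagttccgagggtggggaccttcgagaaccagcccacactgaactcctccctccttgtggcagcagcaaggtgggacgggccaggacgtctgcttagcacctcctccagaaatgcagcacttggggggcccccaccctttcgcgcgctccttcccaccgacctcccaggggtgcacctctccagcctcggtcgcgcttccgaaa
Gad1: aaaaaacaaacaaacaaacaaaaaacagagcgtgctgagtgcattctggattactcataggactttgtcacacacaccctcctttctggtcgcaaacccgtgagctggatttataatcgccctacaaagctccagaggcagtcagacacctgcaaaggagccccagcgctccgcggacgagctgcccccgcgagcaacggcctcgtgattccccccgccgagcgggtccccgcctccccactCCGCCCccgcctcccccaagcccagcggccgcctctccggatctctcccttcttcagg
Slc17a7: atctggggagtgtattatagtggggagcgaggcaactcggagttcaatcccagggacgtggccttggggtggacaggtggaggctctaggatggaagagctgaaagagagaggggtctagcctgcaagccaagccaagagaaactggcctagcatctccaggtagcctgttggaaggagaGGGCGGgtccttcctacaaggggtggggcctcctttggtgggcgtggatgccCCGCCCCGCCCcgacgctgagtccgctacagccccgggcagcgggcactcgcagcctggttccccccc
The GC box was found 0 times in the Slc32a1 window, 1 time in that of Gad1 and 3 times in that of Slc17a7, where a pair of the matches overlap. It is held by 35.7% of 32851 promoter windows of the same length. Camk2b, Uchl1 and Syt1, not printed here, were also highest in the animal that was highest for Slc32a1 and Gad1. The Camk2b window held 3 matches, that of Uchl1 0 and those of Syt1 0 and 1. The count of GC boxes thus did not follow the level in that animal. G and C made up 63.3% of the Slc32a1 window, 60.0% of that of Gad1 and 63.7% of that of Slc17a7, against a median of 52.7% over all windows. Of the 9 genes, Gad1, Slc32a1 and Snap25 lie on chromosome 2.

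A probe was counted as detected on an array where its deposited detection p was under 0.01, that is, where it stood above the negative controls of that array. Levels are log2 of the background-corrected, quantile-normalised intensity, and they are compared between animals for the same probe only. Mean raw intensity per array ran from 358.4 to 765.4, and 34.97% to 41.64% of probes were detected. The epithelium of the choroid plexus was present in every animal: all 12 epithelial markers on the array passed the detection filter, and Ttr, which encodes the transthyretin that the epithelium secretes, stood between 14.75 and 15.08. Among the arrays, WT animal 13 (11-12 months) had 137 of 11464 tested probes more than 2 log2 units above the median of the other 23 animals, and J20 animal 11 (5-6 months) had 55, of which 41 were shared. WT animal 15 (3 months), J20 animal 18 (5-6 months) and J20 animal 21 (11-12 months) departed both ways, with 142, 89 and 62 probes more than 2 log2 units below the others and 16, 52 and 15 above. Results that rest on animals 13 and 11 are given with and without them.

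The 9 genes did not behave as one group at the level of detection. Uchl1 was detected in all 24 animals, Syt1 in 21 and Camk2b in 18. Gad1 was detected in 10 animals by its first probe and in 4 by its second, Slc17a7 in 9 and Slc32a1 in 7. Gap43 was detected in 1 animal, WT animal 13, and Snap25 and Nefl in 0 of 24. Snap25 stood between 4.29 and 4.63 with a lowest detection p of 0.357, and Nefl between 4.31 and 4.64 with a lowest detection p of 0.388. These 2 probes gave no neuronal signal in any animal, also where the other members were high. Whether they report their genes was not checked, and no level can be given for either gene. Gap43 stood at 5.99 in WT animal 13 and at most at 5.03, in J20 animal 11, elsewhere. The number of member genes detected ran from 1, in WT animal 3 (5-6 months), to 6, in WT animals 13, 6 and 34 (11-12 months), J20 animal 11 (5-6 months) and J20 animal 16 (3 months). The 7 probes of 6 genes that were detected on at least 3 arrays entered the tests.

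**Figure D1:**
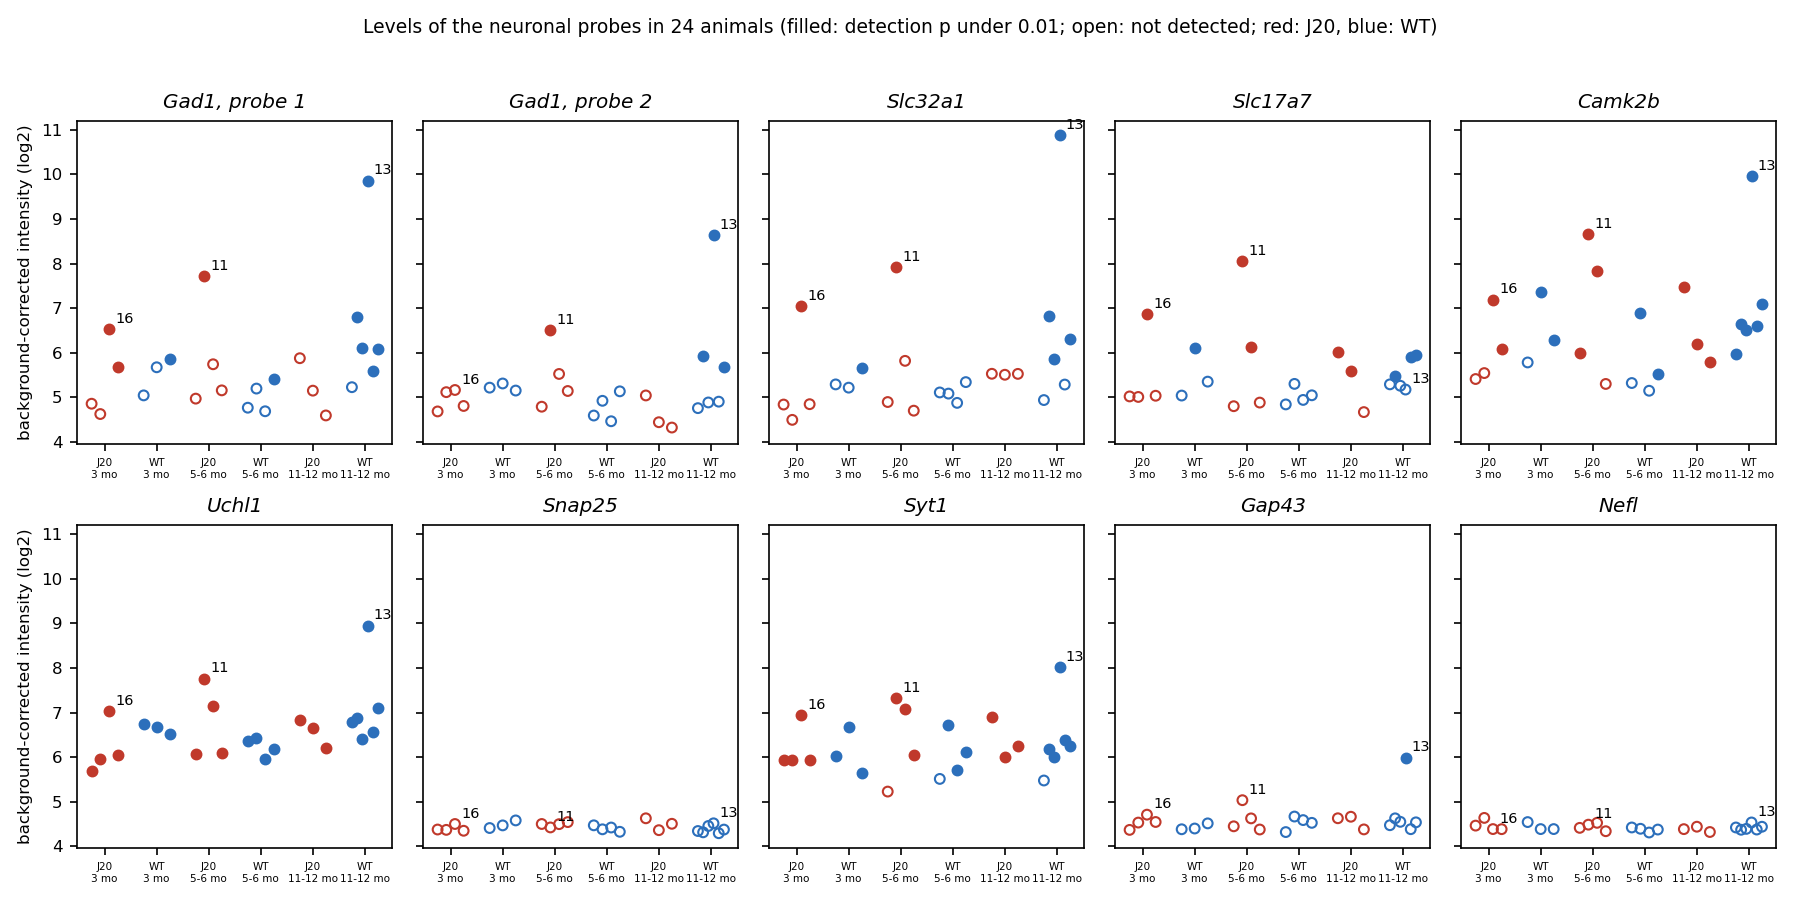
Level of each of the 10 probes in 24 animals (vertical axis, log2 of background-corrected intensity), J20 in red and WT in blue, by age; filled points were detected at p under 0.01 and open points were not, and animals 13, 11 and 16 are numbered. WT animal 13 was highest for both Gad1 probes, Slc32a1, Camk2b, Uchl1, Syt1 and Gap43, while for Slc17a7 it stood at 5.18 among the undetected animals and J20 animal 11 was highest at 8.06.

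Slc32a1 had the widest range of the members, and 1 animal set its upper end. At 3 months its level was 4.84, 4.50, 7.04 and 4.85 in J20 animals 2, 9, 16 and 23, and 5.29, 5.22 and 5.65 in WT animals 1, 15 and 22. At 5-6 months it was 4.90, 7.92, 5.82 and 4.70 in J20 animals 4, 11, 18 and 25, and 5.11, 5.09, 4.88 and 5.34 in WT animals 3, 10, 17 and 24. At 11-12 months it was 5.53, 5.51 and 5.53 in J20 animals 21, 28 and 35, and ran from 4.94 to 10.88 with a median of 6.08 in WT. The 10.88 belonged to WT animal 13, followed over the whole series by J20 animals 11 and 16 and WT animal 6 (6.83). Detection was lacking in every WT mouse of 5-6 months and every J20 mouse of 11-12 months. With undetected values raised to the lowest detected value of their array, WT animal 13 was at least 37.4-fold above the median of the other 23 animals, J20 animal 11 at least 4.79-fold and J20 animal 16 at least 2.62-fold. At each age the J20 and WT values overlapped.

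Gad1, the other GABA gene, followed the same animals. On its first probe the level at 3 months was 4.86, 4.63, 6.54 and 5.69 in J20 animals 2, 9, 16 and 23, and 5.05, 5.68 and 5.87 in WT animals 1, 15 and 22. At 5-6 months it was 4.97, 7.73, 5.74 and 5.16 in J20 animals 4, 11, 18 and 25, and 4.77, 5.20, 4.69 and 5.41 in WT animals 3, 10, 17 and 24. At 11-12 months it was 5.88, 5.15 and 4.60 in J20 animals 21, 28 and 35, none of them detected, and ran from 5.23 to 9.86 with a median of 6.10 in WT, where 5 of 6 were detected. WT animal 13 was at least 18.02-fold above the median of the others, and J20 animal 11 at least 4.10-fold. The second Gad1 probe was detected only in WT animals 13 (8.64), 6 (5.93) and 34 (5.68) and J20 animal 11 (6.52), and was otherwise near background. Over 24 animals the 2 probes had a Pearson r of 0.928 and a Spearman rho of 0.73 (permutation p = 1e-05, the smallest that 100000 resamples can give, and 0.00012, 2-sided), and r was 0.70 without the 2 animals farthest from the median.

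Slc17a7 departed from the GABA genes in the animal that was highest for them. At 3 months its level was 5.02, 5.01, 6.87 and 5.04 in J20 animals 2, 9, 16 and 23, and 5.04, 6.10 and 5.36 in WT animals 1, 15 and 22. At 5-6 months it was 4.80, 8.06, 6.13 and 4.89 in J20 animals 4, 11, 18 and 25, and 4.84, 5.30, 4.95 and 5.05 in WT animals 3, 10, 17 and 24, of which none was detected. At 11-12 months it was 6.02, 5.60 and 4.67 in J20 animals 21, 28 and 35, and ran from 5.18 to 5.96 with a median of 5.39 in WT. The 5.18, the lowest WT value at that age, was that of animal 13, which ranked 14 of 24 and was not detected. The 3 highest animals were all J20, animals 11, 16 and 18, and J20 animal 11 was at least 5.38-fold above the median of the other 23.

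**Figure D2:**
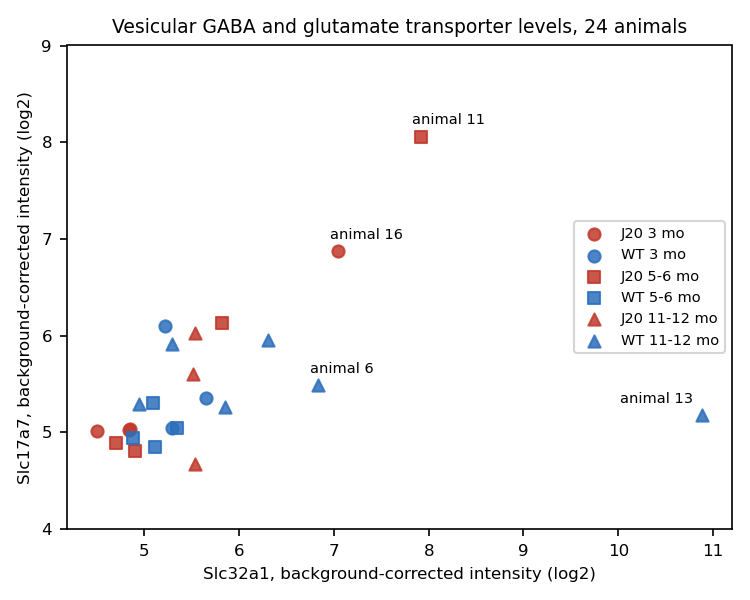
Level of Slc17a7 (vertical axis) against Slc32a1 (horizontal axis), both log2 of background-corrected intensity, 1 point per animal, by genotype (colour) and age (shape). J20 animals 11 and 16 were high for both transporters, whereas WT animal 13 lies at the far right, 10.88 for Slc32a1 and 5.18 for Slc17a7.

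Camk2b, which both excitatory and inhibitory neurons use, was detected more widely. At 3 months its level was 5.41, 5.55, 7.20 and 6.09 in J20 animals 2, 9, 16 and 23, and 5.79, 7.37 and 6.28 in WT animals 1, 15 and 22. At 5-6 months it was 6.00, 8.66, 7.83 and 5.30 in J20 animals 4, 11, 18 and 25, and 5.32, 6.89, 5.15 and 5.52 in WT animals 3, 10, 17 and 24. At 11-12 months it was 7.48, 6.19 and 5.80 in J20 animals 21, 28 and 35, and ran from 5.98 to 9.96 with a median of 6.62 in WT. WT animal 13 was 13.6-fold and J20 animal 11 5.53-fold above the median of the other 23. In both genotypes the values of all 3 ages overlapped.

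Uchl1 was above background in every animal. Its SD within groups, 0.66, was the smallest of the 7 tested probes over 24 animals, but without animals 13 and 11 the second Gad1 probe had a smaller one (0.37, against 0.39 for Uchl1). At 3 months its level was 5.70, 5.96, 7.04 and 6.04 in J20 animals 2, 9, 16 and 23, and 6.74, 6.67 and 6.51 in WT animals 1, 15 and 22. At 5-6 months it was 6.08, 7.76, 7.14 and 6.10 in J20 animals 4, 11, 18 and 25, and 6.36, 6.43, 5.96 and 6.18 in WT animals 3, 10, 17 and 24. At 11-12 months it was 6.83, 6.66 and 6.20 in J20 animals 21, 28 and 35, and ran from 6.41 to 8.95 with a median of 6.83 in WT. WT animal 13 was 5.42-fold above the median of the others and J20 animal 11 2.37-fold. Uchl1 was thus measured in animals where Slc32a1, Gad1 and Slc17a7 were not detected, such as J20 animals 2 and 9 (3 months) and WT animal 3 (5-6 months).

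Syt1 was not detected in WT animals 3 and 5 or J20 animal 4 and was highest in the same animals as Camk2b. At 3 months its level was 5.93, 5.93, 6.95 and 5.93 in J20 animals 2, 9, 16 and 23, and 6.02, 6.67 and 5.64 in WT animals 1, 15 and 22. At 5-6 months it was 5.23, 7.31, 7.07 and 6.05 in J20 animals 4, 11, 18 and 25, and 5.51, 6.72, 5.71 and 6.13 in WT animals 3, 10, 17 and 24. At 11-12 months it was 6.89, 6.01 and 6.24 in J20 animals 21, 28 and 35, and ran from 5.48 to 8.02 with a median of 6.22 in WT. WT animal 13 was 3.92-fold and J20 animal 11 2.41-fold above the median of the others. Syt1 was also the member that went most clearly with the strength of an array's signal: against the upper quartile of raw intensity, on the log2 scale, r was -0.506 and rho -0.599 over 24 animals (permutation p = 0.0121 and 0.00231, 2-sided, adjusted p = 0.0726 and 0.0139 over 6 genes). Without the 2 animals farthest from the median upper quartile r was -0.60, and within BeadChips 1, 2 and 3 it was -0.769, 0.069 and -0.352. For the other 5 genes r ran from -0.0955 to -0.378, and none passed after adjustment. The part of signal strength in the levels was not tested.

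The mean over the 6 tested genes of the centred log2 level ordered the animals. It was 2.75 in WT animal 13, 1.84 in J20 animal 11, 0.88 in J20 animal 16 and 0.56 in J20 animal 18, and between -0.84 and 0.41 in the other 20, lowest in WT animal 17 (5-6 months). WT animal 13 held 43.8% of the sum of squares of this mean and J20 animal 11 held 19.7%, and the 6 groups together accounted for 19.7%. The 3 BeadChips accounted for 36.8%: the median was -0.59, 0.47 and -0.33 on BeadChips 1, 2 and 3, and BeadChip 2 held the 4 highest animals as well as the lowest. Whether the slide has a part in the levels was not tested beyond these values and the blocked fits.

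The spread within groups was correspondingly large. Its median over the 7 tested member probes was an SD of 0.86 log2 units (range 0.66 for Uchl1 to 1.38 for Slc32a1), against a median of 0.32 over all 11464 tested probes. Without WT animal 13 and J20 animal 11 the median was 0.59 for the members, against 0.31 for all probes.

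The members varied together from animal to animal. Of the 15 pairs of the 6 tested genes, 14 passed an adjusted p of 0.05 on Pearson r over 24 animals (permutation test, 2-sided, Benjamini-Hochberg over 15 pairs). No share over pairs of other probes is given, and this permutation did not keep the BeadChips apart. The count thus describes these genes and does not show a trait particular to them. For the 10 pairs without Slc17a7, r ran from 0.761 to 0.956, highest for Gad1 and Slc32a1, and rho from 0.597 to 0.826. For the 5 pairs with Slc17a7, r ran from 0.408 to 0.625 and rho from 0.626 to 0.81. Slc32a1 and Slc17a7 were the pair that did not pass on r (0.408, permutation adjusted p = 0.0546), while their rho was 0.626 (permutation adjusted p = 0.00149).

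With the 2 animals farthest from the median of the first gene left out, 14 of 15 pairs passed and r ran from 0.394 to 0.819. For Slc32a1 and Slc17a7 these were animals 13 and 11, and r was then 0.66 (permutation adjusted p = 0.00227). For Slc17a7 and Uchl1 they were animals 11 and 16, and r was 0.394 (permutation adjusted p = 0.0629). Within BeadChips of 8 animals, 0 pairs passed on BeadChip 1, 10 on BeadChip 2 and 4 on BeadChip 3 (exact permutation test, adjusted over 15 pairs). The pairs' r ran from 0.167 to 0.956 on BeadChip 1, from 0.117 to 0.985 on BeadChip 2 and from -0.229 to 0.869 on BeadChip 3. On BeadChip 2, which holds animals 13, 11, 16 and 18, the 10 pairs that passed were those without Slc17a7.

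Genotype and age were then compared, to ask whether the neuronal signal differed between the groups of the study. No member passed in any comparison, and each difference below is a log2 value of the first group minus the second. At 11-12 months, J20 against WT, the 7 probes had a median difference of -0.64 (range -1.41 to 0.00), against 0.02 over all probes. With limma, 0 of 7 passed an adjusted p of 0.05 (background 0%), and 1 had an unadjusted p under 0.05 (background 5.85%). That was the second Gad1 probe, at 4.61 ± 0.39 in J20 and 5.80 ± 1.47 in WT (SD, n = 3 and n = 6, difference -1.20, 95% interval -2.36 to -0.03, limma adjusted p = 0.70). Of the animals that detected this probe, 3 were WT of 11-12 months and 1 was J20 of 5-6 months. It thus passed the detection filter only through this WT group, and its test here was not independent of the filter. The first Gad1 probe stood at 5.21 ± 0.64 in J20 and 6.62 ± 1.68 in WT (difference -1.41, limma adjusted p = 0.70), and since no J20 animal was detected WT was at least 1.89-fold higher in value. Slc32a1 stood at 5.52 ± 0.01 in J20, below detection throughout, and 6.68 ± 2.17 in WT, at least 1.98-fold higher in value in WT (limma adjusted p = 0.701). Without WT animal 13 the median over the 7 probes was -0.18, and 1 of 7 lay above 0; the difference was then -0.76 for the first Gad1 probe and -0.32 for Slc32a1, so neither bound holds without that animal. Within BeadChip 2, which holds animal 13, the median was -0.85 with 1 of 7 above 0, and within BeadChip 3, which does not, it was -0.80 with 0 of 7 above 0 (1 or 2 arrays a group, no test). The J20 and WT values overlapped for each probe, 0 of 7 being apart (background 3.82%).

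At 5-6 months the 7 probes all stood higher in J20 than in WT by value, with a median difference of 0.73 (range 0.40 to 1.23), against 0.00 over all probes. None passed with limma (background 0%), and 0 had an unadjusted p under 0.05 (background 1.26%). Camk2b stood at 6.95 ± 1.56 in J20 and 5.72 ± 0.79 in WT (SD, n = 4 each, difference 1.23, 95% interval -0.35 to 2.80, limma adjusted p = 1). Slc17a7 stood at 5.97 ± 1.52 in J20 and at 5.04 ± 0.20 in WT, where no animal was detected, at least 1.29-fold higher in value in J20 (limma adjusted p = 1). Without J20 animal 11 the median was 0.24, with 7 of 7 still above 0, and the difference of Slc17a7 was 0.24, below its bound. Within BeadChip 2, which holds J20 animals 11 and 18 and WT animal 17, the median was 1.99, and within BeadChips 1 and 3 it was -0.20 and -0.16. Values of J20 and WT overlapped for each probe (0 of 7 apart, background 0.645%).

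At 3 months J20 and WT stood close together, with a median difference of -0.10 (range -0.46 to 0.08), against 0.00 over all probes. None of the 7 passed with limma (background 0%), 0 had an unadjusted p under 0.05 (background 0.898%) and 0 had groups that did not overlap (background 1.22%). Uchl1 had the lowest value, at 6.18 ± 0.59 in J20 and 6.64 ± 0.12 in WT (SD, n = 4 and n = 3, limma adjusted p = 0.999). Within BeadChips 1, 2 and 3 the median was -0.30, 0.37 and -0.32. In limma's moderated F test of the interaction of genotype and age 0 of 7 passed (background 0%), with unadjusted p from 0.0775 for the second Gad1 probe to 0.817 for Syt1.

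Ages were compared within each genotype. In WT between 11-12 and 5-6 months all 7 probes stood higher at the later age by value, with a median difference of 1.02 (range 0.37 to 1.60), against -0.01 over all probes. With limma 0 of 7 passed (background 0.0436%), and 2 had an unadjusted p under 0.05 (background 1.65%). The first Gad1 probe stood at 6.62 ± 1.68 at 11-12 months and 5.02 ± 0.34 at 5-6 months (SD, n = 6 and n = 4, difference 1.60, 95% interval 0.21 to 2.99, limma adjusted p = 1). Uchl1 stood at 7.11 ± 0.93 at 11-12 months and 6.23 ± 0.21 at 5-6 months (difference 0.88, 95% interval 0.05 to 1.70, limma adjusted p = 1). Slc32a1 stood at 6.68 ± 2.17 at 11-12 months, at least 2.11-fold above its undetected level at 5-6 months (limma adjusted p = 1). Without WT animal 13 the median was 0.55 with 7 of 7 above 0, but 0 of 7 had an unadjusted p under 0.05 with limma, and the difference of Slc32a1 was 0.74, below its bound. Within BeadChips 1, 2 and 3, all animals included, the median was 0.43, 2.30 and 0.45. The groups overlapped for each probe (0 of 7 apart, background 0.672%).

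In WT between 11-12 and 3 months the median difference was 0.57 (range 0.02 to 1.29), with 7 of 7 above 0, and it was 0.09 without WT animal 13, with 6 of 7 above 0. Within BeadChips 1, 2 and 3 it was 0.35, 1.01 and 0.32, each with 6 of 7 above 0, and animal 13 lies on BeadChip 2. No probe passed with limma (background 0.105%), 0 had an unadjusted p under 0.05 (background 4.41%) and 0 had groups apart (background 2.02%). Between 5-6 and 3 months in WT the median was -0.45 (range -0.76 to -0.09), with 7 of 7 below 0, and within BeadChips 1, 2 and 3 it was -0.06, -0.96 and -0.31. Again 0 of 7 passed with limma (background 0%), and 0 had an unadjusted p under 0.05 (background 2.57%). This was the 1 comparison in which groups did not overlap for some members, Uchl1 and the second Gad1 probe, 2 of 7 (background 2.57%). Uchl1 stood at 6.23 ± 0.21 at 5-6 months and 6.64 ± 0.12 at 3 months (SD, n = 4 and n = 3, limma adjusted p = 1), and the second Gad1 probe was not detected at either age.

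In J20 between 5-6 and 3 months the 7 probes stood 0.53 higher in the median by value (range 0.23 to 0.88), with 7 of 7 above 0, but at -0.07 without J20 animal 11, with 3 of 7 above 0. By limma 0 of 7 passed (background 0%), 0 had an unadjusted p under 0.05 (background 3.18%) and 0 had groups apart (background 2%). Between 11-12 and 5-6 months the median was -0.46 (range -0.89 to -0.04), with 7 of 7 below 0, and 0.13 without J20 animal 11, with 5 of 7 above 0. Of the 7, 0 passed with limma (background 0.0349%), 0 had an unadjusted p under 0.05 (background 1.34%) and 0 had groups apart (background 1.78%). Between 11-12 and 3 months the median was 0.20 (range -0.34 to 0.43), with 4 of 7 above 0. Here too 0 of 7 passed with limma (background 0.0611%), 0 had an unadjusted p under 0.05 (background 5.31%) and 0 had groups apart (background 8.8%). Comparisons that share a group of animals are not independent of each other.

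**Figure D3:**
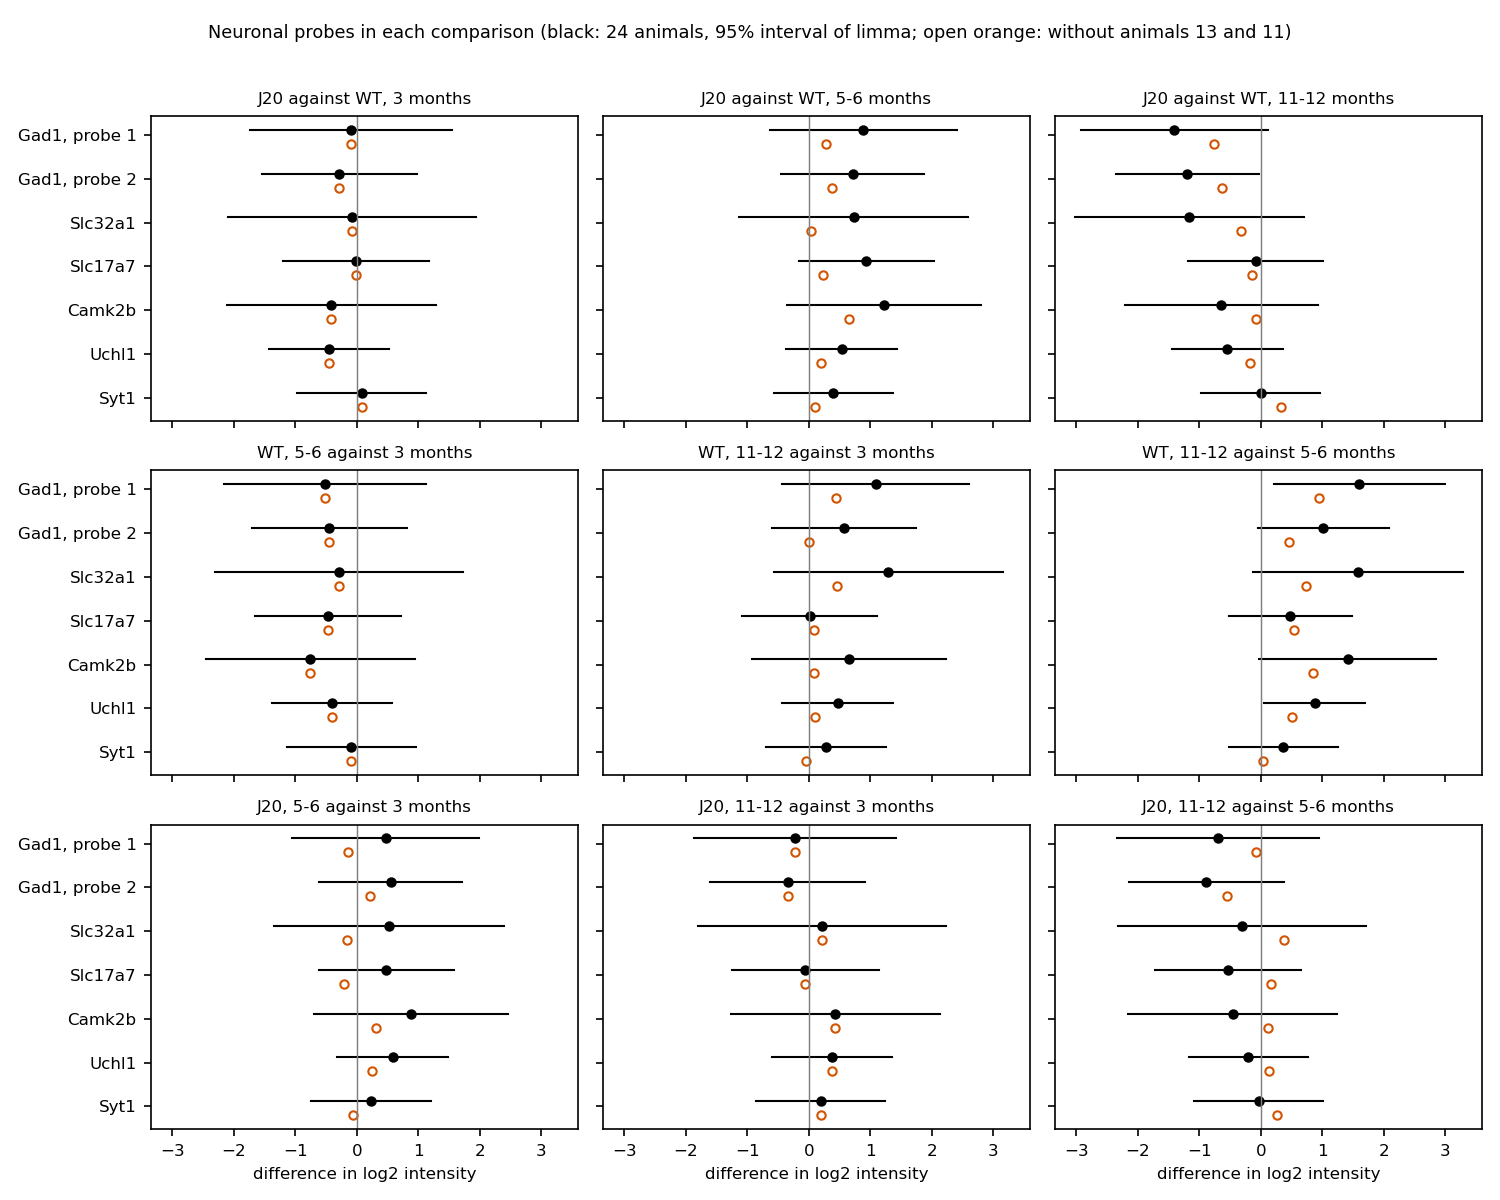
Difference in log2 level of the 7 tested probes in each comparison named above its panel, first group minus second; black points and bars are limma's estimates and 95% intervals over 24 animals, and open orange points are estimates without WT animal 13 and J20 animal 11. For the second Gad1 probe in J20 against WT at 11-12 months, and for the first Gad1 probe and Uchl1 in WT between 11-12 and 5-6 months, the interval lies off 0, and each of these values is nearer 0 without the 2 animals. Their unadjusted limma p without the 2 animals was 0.0249, 0.018 and 0.0557, against 0.0452, 0.026 and 0.038 with them. The second Gad1 probe passed the detection filter only through WT of 11-12 months. Without the 2 animals it was detected in only 2 animals, both of that group, and would not pass the filter. Its p values here are thus not independent of the filter. No member passed after adjustment either way.

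Markers of other cells that the tissue could hold were summarised for the same animals, as the mean over a list's tested genes of the difference from the median animal. The list of 22 other neuronal genes stood at 1.75 in WT animal 13, at 1.31 in J20 animal 11 and at 0.79 in J20 animal 16, the 3 highest of 24, with 0.72 the highest elsewhere. Over this list 0 genes passed in any comparison with limma, and the summed intensity ran from 6611 to 19263 in WT of 11-12 months and from 6514 to 13038 in J20 of 5-6 months. Elavl4 and Cplx2 were detected on no array. Of its 4 brightest genes, Eno2, a neuronal form of the glycolytic enzyme enolase, stood at 11.50 in WT animal 13 and Rab3a, a GTPase of synaptic vesicles, at 10.44, each the highest of 24. Sv2a, a vesicle glycoprotein, stood at 10.10 there and ranked 4. Olfm1, a secreted neuronal glycoprotein, stood at 9.90 there and ranked 16 on the probe used, with its highest value of 10.44 in J20 animal 11, and ranked 7 on its other probe.

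Markers of neuron subtypes were ordered differently in these 2 animals, without a test. The list of 5 glutamate neuron genes stood at 2.04 in WT animal 13 and 1.21 in J20 animal 11, and that of 4 GABA neuron genes at 1.43 in WT animal 13 and 1.87 in J20 animal 11. Npy, Cck and Sst of the GABA list were each detected on 3 arrays, the least that the filter allows. They entered the list only through those few animals, and their medians lie near background, so the GABA mean is no independent support. Sst, the peptide somatostatin of one class of GABA neurons, stood at 8.92 in WT animal 13 and 6.30 in J20 animal 11, against a median of 4.70. Pvalb, the calcium buffer of another class, stood at 7.87 in WT animal 13 and 10.18 in J20 animal 11, against a median of 7.15, and Cck at 4.99 and 6.87. Slc17a6, which encodes the glutamate transporter VGLUT2 of thalamus and brainstem, stood at 7.19 in WT animal 13 and 8.09 in J20 animal 11, the second and the highest of 24. Camk2a stood at 9.64 in WT animal 13 and 7.56 in J20 animal 11, and Gria2, a glutamate receptor subunit, at 9.52 and 7.63. Slc17a7 was thus not detected in the animal with the highest levels of Camk2a, Gria2 and Dlg4 (6.68). In J20 animal 11 Dlg4 stood at its median of 5.88, rank 13. Neurod2, the remaining gene of the glutamate list and detected on 3 arrays, was high in neither animal. It stood at 5.22 in WT animal 13 and 4.95 in J20 animal 11, ranks 12 and 21, against a median of 5.21. Gad2, Dlx2, Vip and Lhx6 of the GABA list and Grin2b, Neurod6 and Tbr1 of the glutamate list were detected on no array.

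Markers of brain regions were few. The thalamus and habenula list (5 genes tested) stood at 0.83 in WT animal 13 and 0.54 in J20 animal 11, the 2 highest, with Calb2, the calcium buffer calretinin, at 8.81 and 7.87 against a median of 6.16. Zfhx3, a transcription factor of this list, stood at 8.48 and 8.31 against 8.35, ranks 10 and 14, and Lef1, Tac2, Gpr151 and Slitrk6 were detected on no array. The striatum and septum list (3 genes) stood at 0.19 and 0.26 in these animals, ranks 6 and 4, and the cerebellum and hindbrain list (3 genes) at 0.29 and 0.11, ranks 4 and 7. The hippocampus list rested on 1 gene, Wfs1, which stood at 9.18 in WT animal 13, the highest of 24, while Prox1, Neurod1, Spink8, Grp and Tdo2 were detected on no array. For peripheral and monoamine axons, 8 of 9 markers on the array (Prph, Th, Dbh, Slc6a2, Slc18a2, Chat, Slc5a7 and Tph2) were detected on no array and the ninth on too few to be tested.

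Some glial markers were high in the same 2 animals and others were not. The astrocyte list (6 genes) stood at 1.70 in WT animal 13 and 0.85 in J20 animal 11, the 2 highest, with Slc1a3, a glutamate transporter of astrocytes, at 11.35 and 9.34 against a median of 8.05, and Gja1, a gap junction protein, at 10.95 and 10.59 against 9.38. Aldh1l1, a folate enzyme of astrocytes, stood near its median of 9.48, at 9.49 and 9.56, ranks 12 and 8. The summed intensity of the list ran from 2861 to 8382 in WT of 11-12 months, and from 2677 to 2856 in J20 of that age. The 8382 was that of WT animal 13, and the lowest WT sum lay just above the highest J20 sum. No share of lists with sums apart is given. The sums were not tested, and 0 of the 6 genes passed with limma between these groups. Gfap, S100b and Fgfr3 were detected on no array. The myelin list (8 genes) stood at 0.65 in WT animal 13 and 0.97 in J20 animal 11, ranks 4 and 1, with Mag, an adhesion protein of myelin, at 7.65 and 8.15 against a median of 6.26. Cldn11, a tight junction protein found in myelin, stood at 11.63 and 12.14 against 11.45, ranks 8 and 4. It was detected in all 24 animals, at 10.95 or above, and which cells its signal came from was not tested. Mbp, the myelin basic protein, stood at 9.38 in WT animal 13 and 9.50 in J20 animal 11 on its brightest probe, ranks 19 and 11, but at 10.64 and 11.07 on another probe, ranks 2 and 1. The part of these cells in the members' levels was not tested.

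The list means of the choroid plexus epithelium and of ependyma were near the low end of the 24 in these animals, though not every gene was low. The epithelium list (12 genes) stood at -0.18 in WT animal 13 and -0.22 in J20 animal 11, ranks 21 and 24, with Igf2 at 14.65 and 14.60 against a median of 14.80. Ttr stood at 14.79 and 14.99 against 14.99, ranks 23 and 13. The list of 7 ependymal genes, which mark the ciliated cells that line the ventricle, stood at -0.28 and -0.36, ranks 22 and 24. Within it Mia stood at 10.27 and 10.46 against a median of 11.35, but Rsph1 at 13.30 and 13.29 against 13.24, ranks 7 and 8. The fibroblast and meninges list was lowest of 24 in WT animal 13 (-0.48) and ranked 6 in J20 animal 11 (0.19). In this bulk tissue fewer cells of a type and less RNA per cell cannot be told apart. Microglia and macrophage (7 genes) stood at 0.13 and 0.45, ranks 9 and 5, and endothelium (7 genes) at -0.14 and 0.22, ranks 16 and 8. Schwann cell (1 gene) and oligodendrocyte precursor (2 genes) markers stood between -0.19 and 0.12 in both animals.

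**Figure D4:**
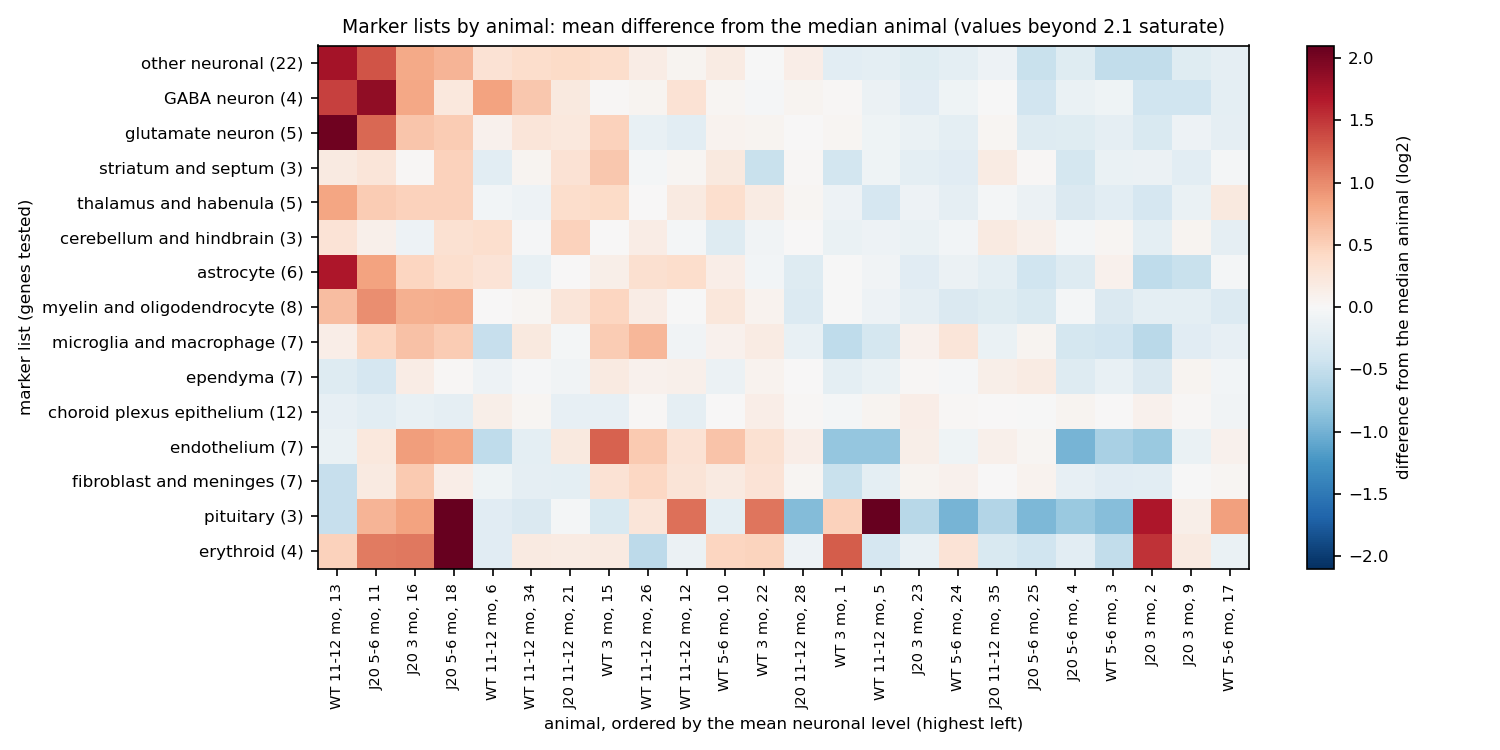
Mean difference from the median animal (colour, log2 units, saturating at 2.1) for each marker list with at least 3 tested genes (vertical, number of genes in brackets) in each animal (horizontal, ordered by the mean level of the neuronal genes, highest left). The 3 left columns, WT animal 13 and J20 animals 11 and 16, are the 3 highest of the other neuronal list at 1.75, 1.31 and 0.79, and the epithelium list is below 0 in each.

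Genes that were not members but varied most like them were ranked by Pearson r with the mean of the 6 genes, after group means were taken out, over 24 animals. The 10 highest were Rasgrf1, Tmem130, Vsnl1, Bmerb1, Tagln3, Thy1, Jakmip1, Eef1a2, Wasf1 and Cpne6, with r from 0.965 to 0.988 over 24 animals and from 0.904 to 0.965 without animals 13 and 11. Rasgrf1, an exchange factor for Ras in neurons, led at 0.988, and stood at 11.38 in WT animal 13, 9.96 in J20 animal 11 and 8.59 in J20 animal 16, against a median of 6.81. Vsnl1, a neuronal calcium sensor, stood at 11.74, 10.24 and 9.49 in these animals, and at most at 9.28 in the others. Thy1, a surface glycoprotein of neurons and T cells and also one of the other neuronal markers, stood at 10.92, 9.47 and 8.71 against 7.05, and Eef1a2, the translation elongation factor of neurons and muscle, at 10.76, 9.93 and 9.14 against 7.60. Animals 13, 11 and 16 ranked 1, 2 and 3 for 9 of the 10 genes, the exception being Bmerb1, where animal 16 ranked 4. The 10 genes were picked by likeness to the neuronal mean over these same animals. Their order of animals thus follows largely from the choice and is no separate result.

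Of 8226 other genes, 144 (1.75%) had r of at least 0.8 over 24 animals, 80 (0.973%) over the 22 without animals 13 and 11, and 68 both ways. The 5 lowest were Zmynd10, a dynein assembly factor of motile cilia, at -0.829, Nr2e1 at -0.805, Acot13 at -0.789, Mlycd, which degrades malonyl-CoA, at -0.786 and Ttc23 at -0.785. Zmynd10 stood at 7.07 in WT animal 13 and 7.39 in J20 animal 11, against a median of 7.88. Over the 22 animals r was -0.743 for Zmynd10 and from -0.497 to -0.622 for the other 4. The animals share array, slide and tissue, so these r are descriptions of likeness over the series.

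**Figure D5:**
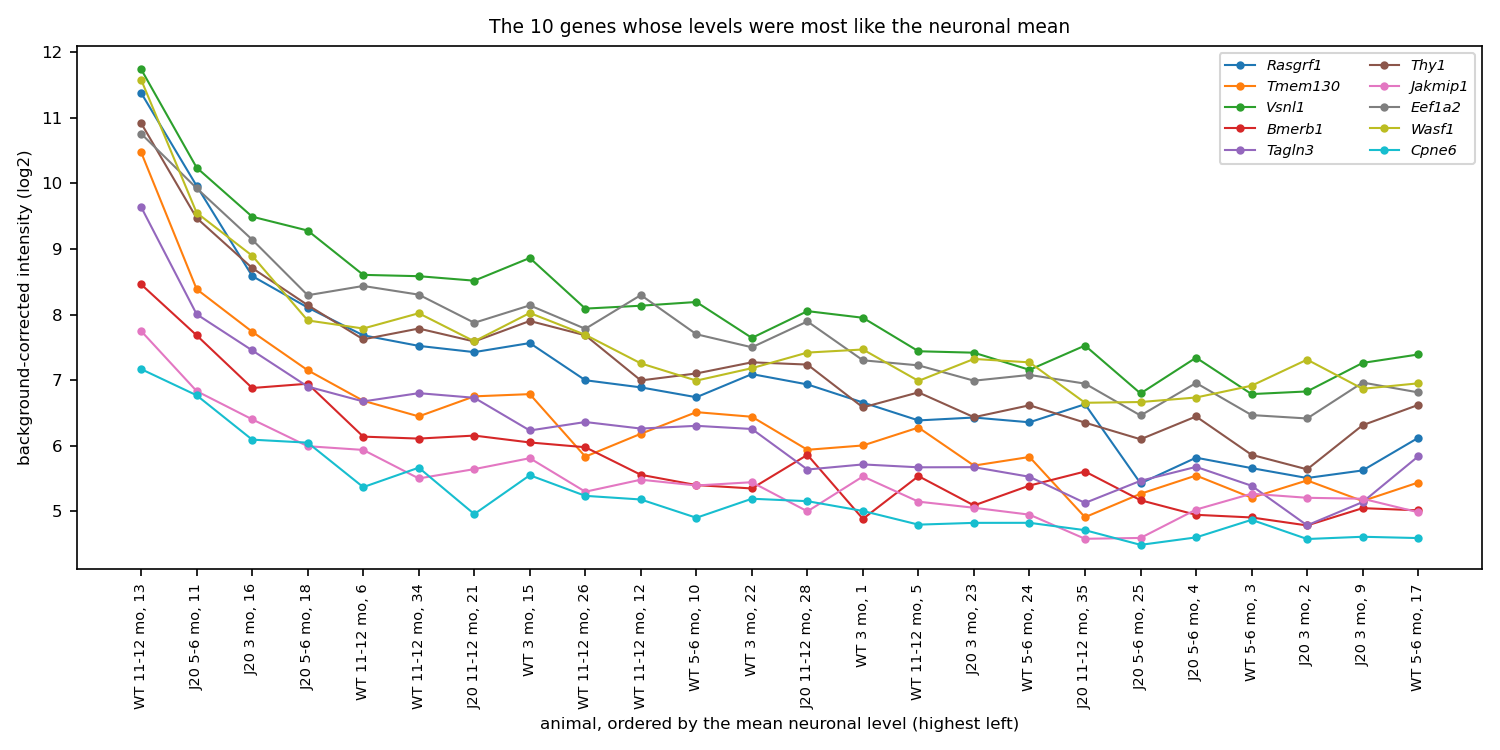
Level (vertical axis, log2 of background-corrected intensity) of the 10 genes most like the neuronal mean in each animal (horizontal, ordered by that mean, highest left), with 1 line joining the points of each gene. Each line is highest in WT animal 13 and second in J20 animal 11, and Rasgrf1 runs from 5.43 to 11.38. The genes were picked by likeness over these animals, so this order follows largely from the choice.

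Of 13 probes that passed limma in any comparison, 0 had r of at least 0.8 with the neuronal mean, against 1.75% of all other genes, a share at which a count of 0 tells little. With the mean of the 6 genes as a covariate in limma, and the members left out, the numbers of probes that passed were 15 in WT between 11-12 and 3 months, 5 between 11-12 and 5-6 months in WT, 9 between 11-12 and 3 months in J20 and 4 between 11-12 and 5-6 months in J20, against 12, 5, 7 and 4 without it, and 0 in the other 5 comparisons both ways.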

How the data were processed

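RNA of choroid plexus from 24 mice was measured on Illumina arrays, 1 per animal. Per the file headers, the deposited non-normalized table holds 1 intensity per probe and array on a linear scale, and beside it the authors deposited a detection p-value. The authors' series matrix holds deposited log2 values, which equal the quantile-normalised log2 of that table and served as an alternative. Unused columns numbered 0. The RNA kit was RNeasy Plus Micro and the labelling kit Ambion MessageAmp, per the labels' protocols. For scanner and summary software the sources used here give nothing. Sample titles write AD for J20, the number that ends a title is used here as the animal's number, and BeadChips were read from barcodes in the labels.

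The function neqc of limma (3.58.1, under R 4.3.3) inferred each array's negative controls from its detection p-values, subtracted background by the normexp model, added an offset of 16, quantile-normalised and took log2. The number of arrays limits the precision. Tests covered 11464 of 25697 probes, for 8232 genes; each was detected (p under 0.01) by 3 or more arrays. Symbols came from the platform's probe table, updated through gene identifiers; 23978 probes had 1 symbol, 0 several and 1719 none. One limma fit with a mean per group gave all comparisons and the interaction, with Benjamini-Hochberg adjustment over all tested probes. The fit was tested on simulated data. P values of limma set a difference between groups against the spread between animals within groups. The main fit does not separate the BeadChip from that spread.

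A fold against undetected values is a bound, since each such value was set to the dimmest signal its array detected, or kept if higher. Correlations used 1 probe per gene, the brightest tested, with 100000 permutations over 24 animals and exact permutation within a BeadChip. Promoter windows came from RefSeq for 6 of 9 members, build GRCm38.p6; Snap25, Gap43 and Nefl have no entry in that table. The text names all members, the 10 genes with the highest and the 5 with the lowest r with the mean of the members, and up to 4 of the brightest tested genes of a marker list, without naming all of these. Genes detected on no array, and Neurod2, were named after their values were seen. The members, marker lists and rules were chosen with earlier results of these data known. Alternatives were other background correction, other filters, the BeadChip as a block, array weights, signal strength as a covariate, fits of the compared groups alone and each animal left out. Leaving out animals 13 and 11 together was chosen after seeing the data.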

Additional observations from a re-analysis of the deposited data

Results flagged for a closer look

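In each group of 4 or more animals, the gap between the highest or lowest animal and its neighbour was divided by the range of the group and set against Dixon's 95% critical value. Chance flags about 1 in 20 independent groups, and of 28 combinations of a tested probe and a group 9 passed. The 28 are not independent, since the members varied together, and no share over all tested probes is given for this rule. The count of 9 is therefore no measure of excess. WT animal 13 (11-12 months, 6 animals) stood apart as the highest animal for the first Gad1 probe (ratio 0.661) and the second (0.698), Slc32a1 (0.682), Camk2b (0.72), Uchl1 (0.731) and Syt1 (0.645). For Slc17a7 it did not stand apart. J20 animal 16 (3 months, 4 animals) stood apart as the highest animal for Slc32a1 (0.862), Slc17a7 (0.985) and Syt1 (0.992). For Slc32a1 and Slc17a7 the other 3 animals of that group were not detected, and values close together near background raise the ratio. J20 animal 11 (5-6 months), the second of the series, was not among them, and J20 animal 18 stood between it and the other 2 J20 animals of that age for each of the 7 probes.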

How the results depend on the processing

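For the members 0 probes passed in each of the 9 comparisons and the interaction, under every alternative run, with 0 to 0 over the 24 fits that each left out 1 animal. The smallest limma adjusted p over 2106 values of single probes was 0.0783, for the second Gad1 probe in J20 against WT at 11-12 months with array weights, and it was 0.441 with the BeadChip as a fixed block. Array weights were also the setting that moved the count over all probes most: in that comparison 267 probes passed, against 0 without weights. Over all probes in WT between 11-12 and 3 months, 19 passed with the BeadChip as a fixed block, 25 as a random block and 72 with weights, against 12, and in J20 between these ages 256 with weights, against 7. Other settings that moved a count over all probes by more than 1.5 times gave 0 to 11 probes, and single animals left out gave 1 to 19; in J20 between 11-12 and 5-6 months 1 passed without J20 animal 11, against 4. Of the 2106 values 81 had the other sign, none of them called. The count of 14 correlated pairs was 14 with group means taken out, 0 within BeadChip 1 and 4 within BeadChip 3, where 8 animals remain. On the authors' deposited log2 values, which have no background correction, the highest animal stood closer to the median for every tested probe, 3.55 against 5.56 for Slc32a1 and 1.22 against 2.78 for Slc17a7. No paired analysis was possible because the numbers in the sample titles are unique to each animal and no 2 groups share any. Signal near background limits Slc32a1, Slc17a7 and both Gad1 probes, which most animals did not detect.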

Other observations

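The pituitary, red cell and endothelial lists each had their highest mean in an animal other than WT animal 13 or J20 animal 11. Gh and Prl, the growth hormone and prolactin of the anterior pituitary, stood at 12.62 and 12.69 in WT animal 5 (11-12 months), against medians of 6.73 and 5.36 over 24 animals, and that animal ranked 15 for the mean of the neuronal genes. Hba-a1, a globin of red blood cells, stood at 13.94 in J20 animal 18 (5-6 months), against a median of 10.51, and Alas2, the first enzyme of haem synthesis in red cell precursors, at 8.59 against 4.98. That animal ranked 4 for the neuronal mean. The red cell list (4 genes) also stood above the median animal in WT animal 13 (0.49), J20 animal 11 (1.09) and J20 animal 16 (1.11), ranks 6, 5 and 4, with Hba-a1 at 11.53, 11.93 and 11.94, and its Slc4a1, an anion exchanger of red cells, was highest of 24 in J20 animal 11 (6.40). In WT animal 13, Gh stood at 5.60 and Prl at 5.34.

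The mean of the 7 endothelial genes was highest in WT animal 15 (3 months), at 1.25, where Flt1, a receptor of vascular endothelial growth factor, stood at 10.44 against a median of 8.80, while Emcn, an endothelial sialoglycoprotein, was highest in J20 animal 16 (10.86). WT animal 15 ranked 8 for the neuronal mean and had Camk2b at 7.37, the highest WT value of 3 months.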
